A study of Mus musculus with 12 samples.

Results

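The p53 family, its 2 principal inhibitors and a set of its target genes were followed in spindloid mouse mammary tumour cells, by taking every row of the raw count table whose symbol was Trp53, Trp63, Trp73, Mdm2, Mdm4, Ccng1, Zmat3, Sesn2, Phlda3 or Eda2r. All 10 members were found among 55573 genes, and 9 were among the 13836 genes that passed the filter on low counts. The cells were tumourspheres of 3 lines, A1005, A1129 and A1471, and each line was grown from 1 mammary tumour of a mouse with the genotype MMTV-Metmt;Trp53fl/+;Cre, in which a mutant Met receptor is driven from the MMTV promoter and 1 allele of Trp53 is floxed. Each line gave 1 library for each of 4 treatments of 24 hours, which were DMSO (the vehicle), Crizotinib (an inhibitor of Met), PD173074 (an inhibitor of fibroblast growth factor receptors) and the combination of both inhibitors. This gave 12 libraries, with n = 3 lines for a treatment and n = 4 libraries for a line. All groups shared the genotype and the sphere culture, and no library came from cells with intact Trp53, so no level below can be set against a wild-type one. A count for a whole gene also does not tell the floxed exons from the rest of the transcript.

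p53, the product of Trp53, is a transcription factor that is stabilised by DNA damage and other stresses and then switches on genes for cell cycle arrest, DNA repair and cell death. Mdm2 is a ubiquitin ligase that marks p53 for degradation and is itself switched on by p53, whereas Mdm4 binds p53 and holds back its activity. p63 and p73 share the DNA-binding domain of p53, and p63 is best known from basal epithelial cells, including those of the mammary gland. Loss of p53 function is common in aggressive breast tumours, and targets such as Ccng1 or Mdm2 also have a basal transcription that does not need p53.

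p53 binds DNA as a tetramer at a pair of decamers, each made of 3 purines, C, 2 bases that are A or T, G and 3 pyrimidines, a pattern that reads the same on both strands. Windows of 300 bases, 250 before and 50 after the transcription start, were available from RefSeq (GRCm38.p6) for 8 of the members. An exact decamer stood in the windows of 3 of them, Mdm2, Ccng1 and Trp53, compared with 9.55% of all 27025 genes with a window. Of 30 listed p53 targets with a window, 10 held a decamer, and 1 held a pair of decamers with at most 13 bases between them, against 0.074% of all genes with a window. That gene was Cdkn1a, which encodes the cell cycle inhibitor p21. The 4 stretches are printed 5′ to 3′ on the strand of the gene because their genes are described below, with the decamers in capitals. They lie at chr11:69580259-69580318 (plus strand) for Trp53, chr10:117710910-117710969 (minus strand) for Mdm2, chr11:40755437-40755496 (minus strand) for Ccng1 and chr17:29090881-29090962 (plus strand) for Cdkn1a.
Trp53: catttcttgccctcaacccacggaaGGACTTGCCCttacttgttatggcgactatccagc
Mdm2: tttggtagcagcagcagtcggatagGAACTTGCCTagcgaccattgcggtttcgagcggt
Ccng1: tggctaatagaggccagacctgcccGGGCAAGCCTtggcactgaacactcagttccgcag
Cdkn1a: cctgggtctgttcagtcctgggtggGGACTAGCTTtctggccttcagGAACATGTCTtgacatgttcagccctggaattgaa
A match of letters is a description of the sequence and not a measured binding site. Responsive decamers often lie elsewhere, for example in the first intron of Mdm2.

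Total counts ran from 13031492 to 17750476 per library, and 3 counts corresponded to 0.167 to 0.234 CPM (counts scaled to a library of 1000000 counts, here after TMM, the trimmed mean of M values). The labelled cells were checked against marker genes. Vim, an intermediate filament of mesenchymal cells, was at 1900 to 3200 CPM, whereas Epcam, an epithelial adhesion molecule, was at 0.181 to 2.08 CPM and Krt5, a basal keratin, had 0 counts in all 12 libraries. Not every marker went this way. Fn1, S100a4 and Zeb1 were at 52.8 CPM or above in every library, but Cdh2, also listed as mesenchymal, was at most 0.453 CPM. Among luminal markers Cdh1 was at most 0.564 CPM, whereas Krt8, Krt18 and Krt19 reached 34.0, 49.4 and 44.0 CPM. The summed levels of 5 markers each were 2540 to 8810 CPM for mesenchymal, 7.09 to 82.9 CPM for luminal epithelial and at most 0.752 CPM for endothelial cells. Markers of leucocytes differed between the lines, with a summed level over 5 markers of 31.3 to 42.2 CPM in A1005, 4.41 to 11.0 CPM in A1129 and 4.48 to 8.45 CPM in A1471. Ptprc, the leucocyte antigen CD45, made 174 to 339 counts per library in A1005 and at most 2 in the others, whereas the macrophage marker Adgre1 had 0 counts in A1005. A1005 also stood apart for several members below, and the part of these cells or transcripts in that was not tested.

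Residual Trp53 transcript was measurable in every library and was low. Trp53 (chr11:69580359-69591873, plus strand, mm10) had 40 to 117 counts per library, and its median level per length was 2.81 RPKM (CPM divided by the exon length in kilobases), above that of 32.8% of the tested genes. In DMSO it stood at 4.37 CPM in A1005, 5.59 CPM in A1129 and 7.94 CPM in A1471. In the combination it stood at 3.34, 3.32 and 4.90 CPM in the same order. The combination was lower than DMSO within each line, but the groups overlapped. The log2 change was -0.63 with a 95% interval from -1.67 to 0.41 and an adjusted p of 0.425 (edgeR's quasi-likelihood test, unpaired). A second fit, called blocked below, takes each line as its own control, and there the change was -0.59, with an interval from -1.20 to 0.01 and an adjusted p of 0.0859. Crizotinib gave 2.73, 7.73 and 6.40 CPM and PD173074 gave 2.60, 6.15 and 5.69 CPM in A1005, A1129 and A1471. Both single inhibitors were below DMSO in A1005 and A1471 and above it in A1129.

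The clearer difference of Trp53 was between lines. Its mean was 3.26 ± 0.808 CPM (SD, n = 4) in A1005, 5.70 ± 1.82 CPM in A1129 and 6.23 ± 1.29 CPM in A1471. The 4 libraries of A1005 all lay below those of A1471, the highest at 4.37 CPM and the lowest of A1471 at 4.90 CPM, and A1005 overlapped A1129 through the combination library of the latter. With treatment as a term, Trp53 was lower in A1005 than in A1129 by a log2 difference of -0.78 (adjusted p = 0.0164) and than in A1471 by -0.92 (adjusted p = 0.00703), and A1129 and A1471 differed by -0.14 (interval -0.64 to 0.37, adjusted p = 0.655). Leaving out the Crizotinib libraries ended the call against A1129 (-0.53, adjusted p = 0.124), as did leaving out the PD173074 libraries (-0.62, adjusted p = 0.118). A line is 1 tumour, so these p-values measure the spread among 4 libraries of a line and not that among tumours. Fewer expressing cells and less transcript per cell cannot be told apart in such bulk libraries, here or below. The pseudogene Trp53-ps had 0 counts in all 12 libraries, and the 50-base words it shares made up 3.64% of those of the Trp53 transcripts.

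**Figure D1:**
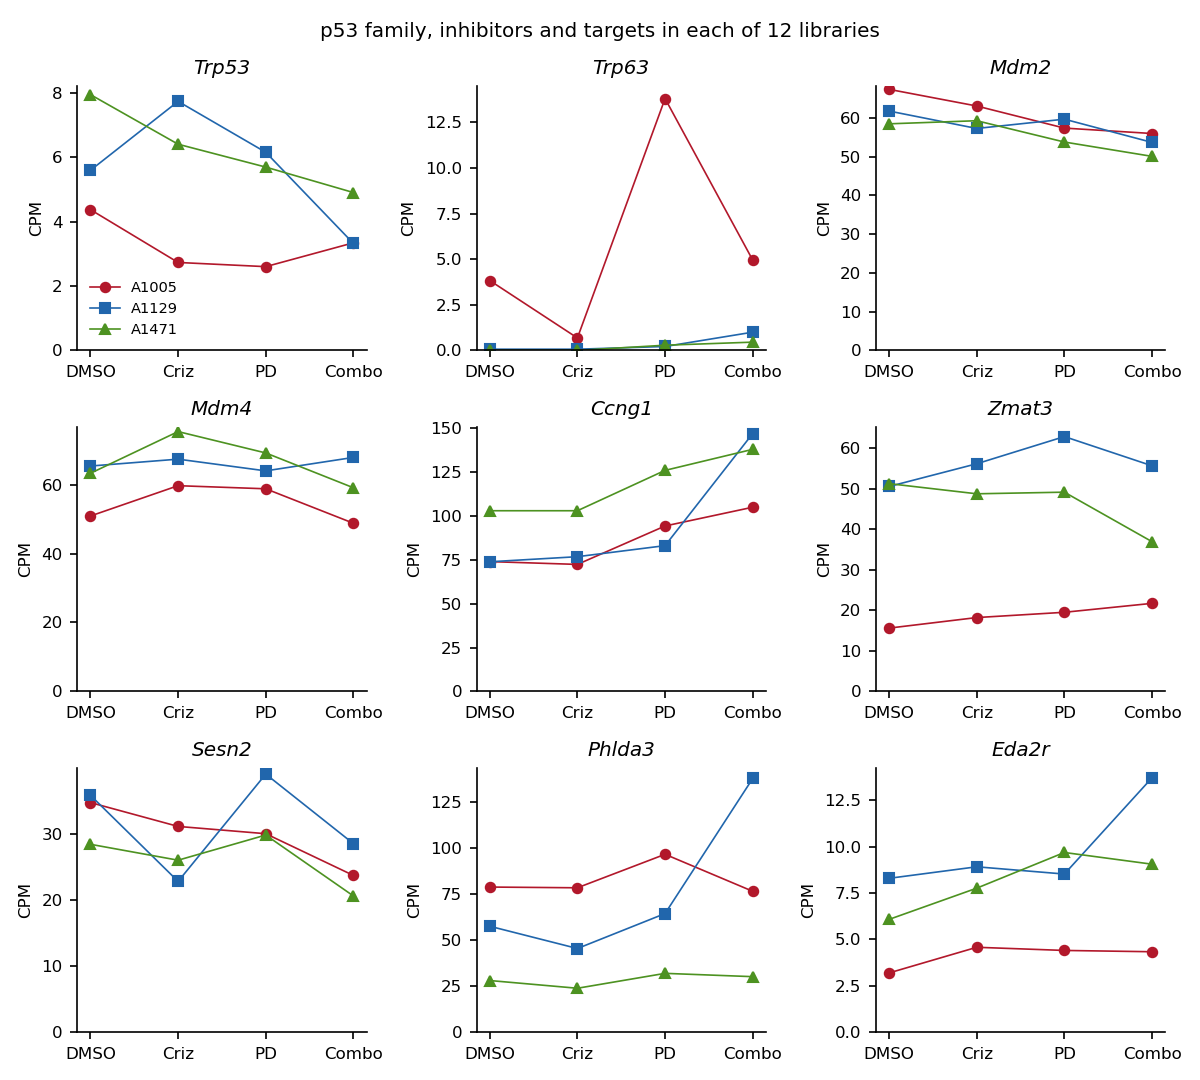
Level of the 9 tested members in CPM (linear axis from 0) in each of the 12 libraries, with the 4 treatments on the horizontal axis (Criz, Crizotinib; PD, PD173074; Combo, combination) and points of 1 line joined. Zmat3 is lowest in A1005 under every treatment, and Trp53 is too except under the combination, where A1005 and A1129 nearly coincide. Trp63 is high in A1005 only, Ccng1 is highest under the combination in each line, and Phlda3 and Eda2r reach their highest level in the A1129 combination library.

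The other members of the family were nearly or wholly absent outside A1005. Trp73 had 0 counts in all 12 libraries, which allows up to 0.234 CPM by counting error in the shallowest one. Trp63 (chr16:25683763-25892102, plus strand) had 49 counts in DMSO, 10 in Crizotinib, 229 in PD173074 and 89 in the combination in A1005. In A1129 it had 1, 1, 3 and 16 counts, and in A1471 it had 0, 0, 4 and 6 counts in the same order. A1005 was above both other lines under each treatment, and its own levels spread from 0.683 CPM under Crizotinib to 13.8 CPM under PD173074. Krt17, a keratin of basal and stressed epithelium, had 14 to 46 counts per library in A1005 and at most 3 in the other lines, whereas Krt14, another basal keratin, had at most 11 counts anywhere. The summed level of 5 basal markers was 1.03 to 3.42 CPM in A1005, at most 0.752 CPM in A1129 and at most 1.06 CPM in A1471, and their part in the Trp63 difference was not tested.

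Trp63 passed the filter on low counts only through A1005, the line in which it was high, and so the difference between lines is given by these counts alone, with no test. It did not pass the filter once A1005 or the combination libraries were left out. Among treatments, Trp63 was higher in the combination than in DMSO within each line, and higher in PD173074 than in DMSO within each line. Only its rise from Crizotinib to the combination was called, and only in the blocked fit (log2 change 3.63, and 3.05 without the block). Trp63 passed the filter only with the combination libraries included, a group where it was higher than in Crizotinib, so nothing is read from this call. The drop under Crizotinib was seen in A1005, from 3.83 to 0.683 CPM, and could not be followed in the other lines, where DMSO and Crizotinib libraries had 0 or 1 counts.

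Of the inhibitors, Mdm2 (chr10:117688875-117710758, minus strand) varied least of the 9 tested members. It stood at 67.4, 61.8 and 58.5 CPM in DMSO, at 63.1, 57.3 and 59.3 CPM in Crizotinib and at 57.4, 59.7 and 53.8 CPM in PD173074, each time for A1005, A1129 and A1471. In the combination it stood at 56.0, 53.7 and 50.1 CPM. The highest of the 12 libraries was 1.35-fold above the lowest, and the 3 combination libraries lay below all 3 DMSO libraries. The log2 change in the combination was -0.23 (interval -0.48 to 0.02, adjusted p = 0.208). In the blocked fit a decrease of the same size passed the test (-0.23, interval -0.41 to -0.05, adjusted p = 0.0345). That call was lost when any 1 line was left out of the block. Mdm2 did not pass the test in any contrast of lines, with log2 differences of 0.07, 0.14 and 0.07 for A1005 against A1129, A1005 against A1471 and A1129 against A1471, and the intervals ran from -0.09 to 0.22, from -0.02 to 0.29 and from -0.09 to 0.23 in the same order.

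Mdm4 (chr1:132959484-133030561, minus strand) was lower in A1005, at 48.8 to 59.7 CPM, than in A1129, at 64.0 to 67.9 CPM, with no overlap. The log2 difference was -0.29 against A1129 (adjusted p = 0.0126) and -0.29 against A1471 (adjusted p = 0.0118), and neither call held without the DMSO libraries (adjusted p = 0.101 and 0.0616) or without the treatment term (adjusted p = 0.0585 and 0.0511). The call against A1129 was also lost with no filter on low counts (adjusted p = 0.078), and that against A1471 without the Crizotinib libraries (adjusted p = 0.0662). No treatment moved Mdm4 past the threshold in either fit over all lines. Its change in the combination was -0.03 with an interval from -0.40 to 0.34. The pseudogene Mdm4-ps shares 7.3% of the 50-base words of the Mdm4 transcripts, so part of its reads may have been assigned elsewhere or set aside. Per length, the median over the libraries was 18.4 RPKM for Mdm2 and 5.86 RPKM for Mdm4, both above the 2.81 RPKM of Trp53.

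Among the targets, Ccng1, which encodes cyclin G1, a partner of protein phosphatase 2A, rose with the combination. Ccng1 (chr11:40748552-40755311, minus strand) stood at 74.0, 73.9 and 103 CPM in DMSO and at 105, 147 and 138 CPM in the combination, for A1005, A1129 and A1471. All 3 combination libraries lay above all 3 DMSO libraries. The log2 change was 0.64 ± 0.22 (SE, adjusted p = 0.0889) in the unpaired fit and 0.66 ± 0.13 (adjusted p = 0.00183) in the blocked one. It held in the blocked fit whichever line was left out, with log2 changes of 0.48 to 0.78. PD173074 libraries stood at 94.3, 83.1 and 126 CPM, above DMSO in each line, and Crizotinib libraries at 72.4, 76.8 and 103 CPM, which were within 0.06 of DMSO on the log2 scale in each line. With the block, Ccng1 was higher in the combination than in Crizotinib (0.65, adjusted p = 0.00196) and than in PD173074 (0.38, adjusted p = 0.0383), and both comparisons missed the threshold without it (adjusted p = 0.0939 and 0.445). The departure from additivity, which is the change in the combination less the changes with both single inhibitors, was 0.38 (interval -0.03 to 0.78) in the blocked fit.

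Eda2r, a death-domain-free receptor of the TNF receptor family that binds ectodysplasin A2, moved the same way at a much lower level. Eda2r (chrX:97333840-97377216, minus strand) stood at 3.20, 8.29 and 6.08 CPM in DMSO and at 4.34, 13.7 and 9.05 CPM in the combination. The groups overlapped because A1005 was low throughout, whereas each line rose, by 0.42, 0.71 and 0.56 on the log2 scale. The log2 change was 0.62 without the block (adjusted p = 0.478) and 0.59 with it (interval 0.17 to 1.01, adjusted p = 0.0228), and it passed with 1 line left out only when that line was A1005. Eda2r was also lower in A1005 than in A1129 (log2 difference -1.24, adjusted p = 1.0e-04) and than in A1471 (-0.97, adjusted p = 6.4e-04).

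Sesn2, a stress-induced inhibitor of mTORC1 signalling that is also switched on by ATF4, went the other way. Sesn2 (chr4:132492032-132510501, minus strand) stood at 34.7, 35.8 and 28.4 CPM in DMSO and at 23.7, 28.5 and 20.6 CPM in the combination. Each line was lower in the combination, by 0.55, 0.33 and 0.46 on the log2 scale in A1005, A1129 and A1471, although the A1129 combination library lay just above the A1471 DMSO library. The log2 change was -0.44 (interval -0.89 to 0.00, adjusted p = 0.173), and with the block it was a decrease that passed (-0.45, interval -0.78 to -0.11, adjusted p = 0.0296) and that held with 1 line left out only when that line was A1129. With the block Sesn2 was also lower in the combination than in PD173074 (-0.44, adjusted p = 0.0406), and this was -0.44 with an adjusted p of 0.268 without it. With all libraries Sesn2 showed no called difference between lines, and its difference was 0.26 for A1129 against A1471 (interval -0.03 to 0.55, adjusted p = 0.13). Without the Crizotinib libraries that difference was called (0.40, adjusted p = 0.0334).

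Phlda3, a pleckstrin-homology protein that competes with Akt for membrane lipids, had the highest level per length of the 5 targets among the members, with a median of 42.6 RPKM against 28.0 for Ccng1. Phlda3 (chr1:135766119-135769136, plus strand) stood at 79.0, 57.7 and 28.2 CPM in DMSO and at 76.7, 138 and 30.3 CPM in the combination. The change therefore lay almost wholly in A1129, where it was 1.26 on the log2 scale, against -0.04 in A1005 and 0.10 in A1471. Its rise from Crizotinib to the combination passed the blocked test (0.70, adjusted p = 0.049) but was 0.73 with an adjusted p of 0.519 without the block, and the blocked call was lost without A1129 or without A1471. Between lines, Phlda3 was lower in A1471, at 24.0 to 32.1 CPM, than in every library of the other lines, with log2 differences of 1.55 for A1005 against A1471 (adjusted p = 2.8e-04) and 1.33 for A1129 against A1471 (adjusted p = 0.0012).

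Zmat3, a zinc finger protein that binds RNA and acts on splicing, separated the lines and not the treatments. Zmat3 (chr3:32334792-32366014, minus strand) ran from 15.6 to 21.7 CPM in A1005, from 50.5 to 62.8 CPM in A1129 and from 36.9 to 51.2 CPM in A1471. A1005 did not overlap the others, and the log2 differences were -1.58 ± 0.13 against A1129 (adjusted p = 4.0e-06) and -1.31 ± 0.13 against A1471 (adjusted p = 1.9e-05). Under the combination it moved by 0.47 in A1005, 0.14 in A1129 and -0.47 in A1471 against DMSO, and the log2 change over the lines was 0.04 with an interval from -0.29 to 0.38 in the blocked fit.

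Counted over the members, the unpaired fit called 0 of 9 in every treatment comparison. Over all tested genes it called 0.0% for Crizotinib against DMSO, 0.0% for PD173074 against DMSO, 14.4% for the combination against DMSO, 13.2% for the combination against Crizotinib, 4.77% for the combination against PD173074 and 0.918% for the departure from additivity. At an unadjusted p under 0.05, the members counted 0, 0, 1, 1, 0 and 0 in the same order, and DESeq2 called 1 member, Ccng1, for the combination against DMSO, where it called 10.3% of its genes, and against Crizotinib, where it called 2860 of 28504 genes. In the blocked fit the calls over all genes were 0.0%, 2.14%, 54.8%, 53.4%, 39.8% and 16.2%. Against these shares it called 0 of 9 members for Crizotinib, 0 for PD173074, 4 for the combination against DMSO (Ccng1 and Eda2r up, Mdm2 and Sesn2 down), 3 for the combination against Crizotinib (Ccng1, Phlda3 and Trp63 up), 2 for the combination against PD173074 (Ccng1 up, Sesn2 down) and 0 for the departure from additivity. At an unadjusted p under 0.05 the blocked fit gave 1 member each for Crizotinib (Trp63), PD173074 (Trp63) and the departure (Mdm4). Nothing is read from these results for Trp63, which passed the filter only with A1005 and the combination libraries included. Called members were thus no more frequent than called genes in general, at 4 of 9 against 54.8%. These comparisons share control libraries and are not independent of each other. Markers of other cells moved with the combination too. Of the luminal markers 3 of 5 were tested, and in the blocked fit 2 of these were lower than in DMSO, Krt18 (interval -1.30 to -0.69, adjusted p = 2.2e-04) and Krt19 (-2.69, interval -3.65 to -1.73, adjusted p = 5.4e-04), with a summed level of 16.2 to 71.1 CPM in DMSO and 7.09 to 47.7 CPM in the combination. Krt19 had a median of 0.0723 CPM over the 12 libraries, below the level of 3 counts, so nothing is read from its call. Of the leucocyte markers 2 of 5 were tested and 1 was higher, Cd68 (0.82, adjusted p = 0.00603), with a summed level of 4.41 to 31.3 CPM in DMSO and 8.45 to 42.2 CPM in the combination. In the unpaired fit 0 of these markers were called, and their part in the changes of the members was not tested. The median log2 change of the 9 members in the combination was 0.04 in the blocked fit, beside 0.03 over all tested genes.

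**Figure D2:**
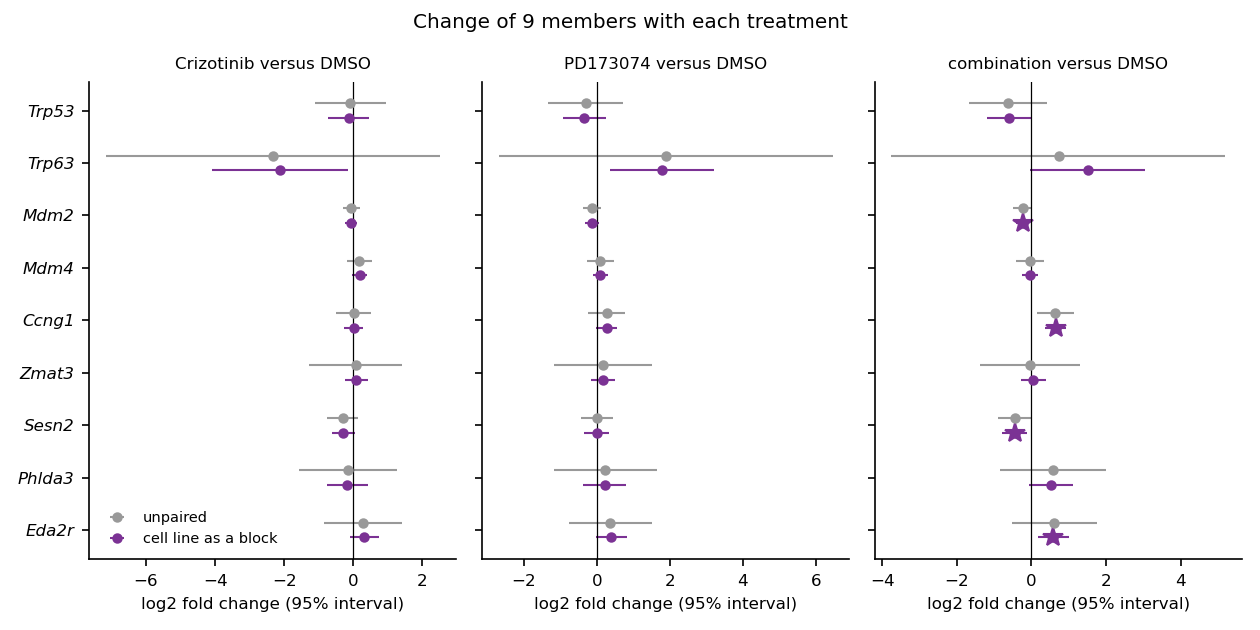
Log2 fold change against DMSO of the 9 tested members for Crizotinib, PD173074 and the combination, with 95% intervals, from the unpaired fit (grey) and the blocked fit (purple), where a star marks an adjusted p under 0.05. The horizontal scales differ between panels, and the 4 stars are Mdm2, Ccng1, Sesn2 and Eda2r in the combination in the blocked fit.

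The wider set of p53 targets moved in both directions under the combination. Together with the 5 targets above, 39 targets were listed and 37 were tested. The unpaired fit called 4 of them higher and 3 lower in the combination than in DMSO, which is 7 of 37 against 14.4% of all tested genes, with a median log2 change of 0.23, beside 0.02 over all tested genes. In the blocked fit, 12 were higher and 7 lower, which is 19 of 37 against the 54.8% of all tested genes given above. For PD173074 against DMSO the blocked fit called 1 of 37 targets, Fas, beside 2.14% of all tested genes. For Crizotinib it called 0 targets, beside 0.0% of all tested genes.

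Among 12 targets in cell death, Fas, the death receptor CD95, rose most. Fas stood at 9.13, 7.89 and 2.62 CPM in DMSO, at 30.4, 23.3 and 30.0 CPM in PD173074 and at 76.1, 86.9 and 53.8 CPM in the combination, for A1005, A1129 and A1471. These 3 groups did not overlap, whereas Crizotinib, at 8.13, 10.1 and 3.24 CPM, overlapped DMSO. The log2 change was 3.46 ± 0.53 in the combination (adjusted p = 0.00289), and in PD173074 it was 2.09 without the block (adjusted p = 1) and 2.23 with it (adjusted p = 0.0135). Trp53inp1, a nuclear and autophagy-linked stress protein, rose to 95.9 ± 27.1 CPM in the combination (SD, n = 3, log2 change 2.98, adjusted p = 0.0133), by 1.54, 4.10 and 4.03 on the log2 scale in A1005, A1129 and A1471. Pidd1, a scaffold of the caspase-2 complex, fell from 6.25 ± 1.41 to 1.68 ± 0.525 CPM (log2 change -1.89, adjusted p = 0.00388), and Aen, an exonuclease of apoptosis, fell too (log2 change -0.98, adjusted p = 0.0259). The other 8 of the 12 did not pass the unpaired test, which called 14.4% of all tested genes. Over all 12, the blocked fit called 4 higher and 2 lower, which is 6 of 12 beside 54.8% of all tested genes.

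Among 12 targets in arrest and repair, Xpc, which recognises DNA lesions in nucleotide excision repair, was higher (log2 change 0.82, adjusted p = 0.0206) and Plk3, a stress-responsive polo-like kinase that is also an immediate early gene, was lower (-2.06, adjusted p = 0.0141). These were the 2 of 12 called in the unpaired fit, beside 14.4% of all tested genes. With the block 4 were higher and 2 lower, which is 6 of 12 beside 54.8%. The rises were led by Sesn1, the sister gene of Sesn2, at 1.66 (adjusted p = 1.3e-04) and Btg2, an antiproliferative cofactor, at 1.34 (adjusted p = 2.6e-04). Sesn1 thus rose in the same blocked comparison in which Sesn2 fell. In metabolism and stress 8 of 10 targets were tested, and Dcxr, a carbonyl reductase, was the 1 called, rising from 4.52 ± 2.18 to 18.3 ± 5.78 CPM (SD, n = 3, log2 change 2.02, adjusted p = 0.0169). That is 1 of 8, beside 14.4% of all tested genes. With the block 2 of these 8 were higher, Dcxr and Dram1, and 2 lower, Gls2 and Fdxr, which is 4 of 8 beside 54.8%.

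**Figure D3:**
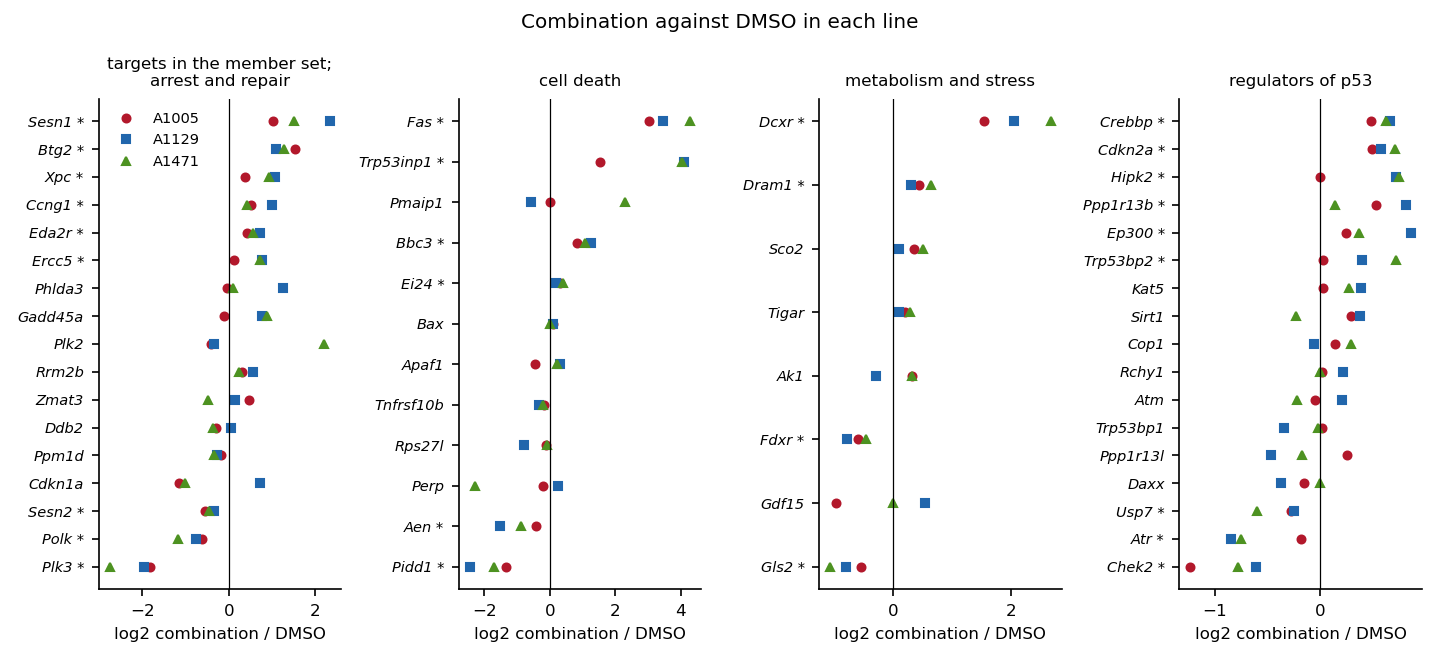
Log2 ratio of the combination to the DMSO library of the same line (1 point a line, horizontal scales differ between panels) for the tested p53 targets and regulators of p53, ordered by the blocked log2 change, where an asterisk marks an adjusted p under 0.05 in the blocked fit. Fas and Trp53inp1 lie to the right in all 3 lines, Plk3 and Pidd1 to the left, and Cdkn1a lies to the left in A1005 and A1471 and to the right in A1129.

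Cdkn1a, the target whose promoter window held the paired decamers, did not pass the test. Cdkn1a stood at 115, 66.5 and 97.7 CPM in DMSO and at 51.9, 109 and 48.4 CPM in the combination, for A1005, A1129 and A1471. It was lower in the combination by 1.15 and 1.01 on the log2 scale in A1005 and A1471 and higher by 0.71 in A1129, and with 1 library for each line and treatment this difference between lines was not tested. PD173074 libraries, at 81.5, 45.4 and 59.3 CPM, were below DMSO in all 3 lines. Over the lines the log2 change was -0.42 in the combination (interval -1.26 to 0.42, adjusted p = 0.522) and -0.59 in PD173074 (interval -1.43 to 0.25).

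Genes that the p53, p21 and DREAM route is known to repress were lower in the combination in nearly every case. Of 14 such cell cycle genes, 13 were called lower and 0 higher in the unpaired fit, beside 14.4% of all tested genes called in either direction. Their median log2 change was -2.26, beside 0.02 over all tested genes. With the block all 14 were called lower, beside 54.8% of all tested genes called in either direction. Mybl2, a transcription factor of the S and G2 phases, fell most (-3.06, adjusted p = 4.3e-05), followed by Birc5, which encodes survivin (-2.74, adjusted p = 5.8e-06), and the smallest called decreases were those of Foxm1 (-1.90, adjusted p = 9.2e-04) and Ccnb2 (-1.94, adjusted p = 0.00504). E2f1 was at -0.87 with an adjusted p of 0.138. Such genes are also known to follow the share of dividing cells by routes without p53. With either single inhibitor 0 of the 14 were called in either fit. Over all tested genes, the unpaired fit called 0.0% for each single inhibitor. The blocked fit called 0.0% for Crizotinib and 2.14% for PD173074. In the blocked fit the median log2 change of the 14 was -0.11 for Crizotinib and -0.26 for PD173074. Over all tested genes the median was 0.00 for each.

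Upstream of p53, 17 regulators were listed and all were tested. The unpaired fit called 1 of 17, beside 14.4% of all tested genes. This was Crebbp, an acetyltransferase that modifies p53 (log2 change 0.59, adjusted p = 0.0288). The blocked fit called 6 higher and 3 lower, which is 9 of 17 against 54.8% of all tested genes. Cdkn2a, which encodes the Mdm2 inhibitor p19Arf and the Cdk inhibitor p16Ink4a from 1 locus, was abundant. Cdkn2a stood at 297, 509 and 510 CPM in DMSO and at 416, 761 and 835 CPM in the combination, for A1005, A1129 and A1471. The combination library was the highest of its line in all 3 lines, and the log2 change was 0.61 without the block (adjusted p = 0.327) and 0.59 with it (adjusted p = 8.7e-04). A gene-level count does not tell the p19Arf from the p16Ink4a transcript. The blocked decreases were those of Usp7, a deubiquitinase of Mdm2 and p53, and of the kinases Atr (-0.59) and Chek2 (-0.87) of the DNA damage response.

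The lines were then compared over the members. The fit with treatment as a term called 5 of 9 members for A1005 against A1129, where 57.8% of all tested genes were called. It called 7 of 9 for A1005 against A1471, where 57.7% were called, and 2 of 9 for A1129 against A1471, where 45.9% were called. Trp63 is 1 of the 5 and 1 of the 7, and since it passed the filter through A1005 nothing is read from its calls. A1005 was lower than both other lines for Trp53, Mdm4, Zmat3 and Eda2r. Averaged over the treatments, Ccng1 was highest in A1471, although its highest single library was the A1129 combination at 147 CPM. The log2 differences were -0.45 for A1005 against A1471 (adjusted p = 0.00583) and -0.34 for A1129 against A1471 (adjusted p = 0.0287), and the second was lost when the DMSO, Crizotinib or PD173074 libraries were left out. Without the treatment term both were lost (adjusted p = 0.156 and 0.387). Of the 37 tested targets, 11 were higher and 9 lower in A1005 than in A1129, and 10 were higher and 11 lower in A1005 than in A1471. Cdkn2a followed Trp53 in being lower in A1005, with log2 differences of -0.81 against A1129 (adjusted p = 2.7e-05) and -0.94 against A1471 (adjusted p = 1.2e-05). Cdkn1a did not pass in any contrast of lines.

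The genes next to Trp53 were read in the same way. Within 100 kb of Trp53 lie 15 other protein-coding genes in the annotation, of which 11 were tested. In A1005, 5 of them were lower and 2 higher than in A1129, and 6 were lower and 2 higher than in A1471, whereas A1129 and A1471 differed for 1. These are 7 of 11, 8 of 11 and 1 of 11, beside 57.8%, 57.7% and 45.9% of all tested genes in the same order. Tnfsf12, described below, is 1 of the genes in each of these counts. It passed the filter through A1129 and A1471 and had 0 counts in A1005, so nothing is read from its calls against A1005. Wrap53, which starts 104 bases from Trp53 on the other strand and is needed for Cajal bodies and telomerase, was lower in A1005 by -0.49 against A1129 (adjusted p = 0.00314) and by -0.54 against A1471 (adjusted p = 0.00194). Fxr2, an RNA-binding protein of the fragile X family, and Senp3, a SUMO protease, were lower in A1005 too, Fxr2 by -0.48 and -0.50 and Senp3 by -0.85 and -0.71. The genes called higher in A1005 were Cd68, which is also 1 of the leucocyte markers above, and Tnfsf13, which encodes the cytokine APRIL. Tnfsf13 was near the floor, with a median of 0.605 CPM and a maximum of 3.22 CPM over the 12 libraries. Its mean was highest in A1005, so nothing is read from its calls between lines.

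Tnfsf12, which encodes the cytokine TWEAK and lies 94377 bases from Trp53, had 0 counts in all 4 libraries of A1005. It had 61 to 199 counts per library in A1129 and 29 to 100 in A1471, which is at least 35.5-fold and at least 21.3-fold higher than the level of 3 counts per library in A1005. Tnfsf12 and Tnfsf13 lie inside the longer Tnfsfm13 gene, a read-through of both, so reads could be split among them, and Tnfsfm13 had 4 to 12 counts per library in A1005. Around Mdm2, 3 protein-coding genes lie within 100 kb and all were tested. Cpm, a membrane carboxypeptidase, had counts of at most 28, with a median of 0.116 CPM and a maximum of 1.75 CPM over the 12 libraries. Its mean was highest in A1129. It passed the filter through that line, so nothing is read from its test between lines. Nup107 and Slc35e3 differed by 0.45 or less. Nup107 was called for A1005 against A1129 (0.33, adjusted p = 0.0262) and for A1129 against A1471 (-0.41, adjusted p = 0.0119). Slc35e3 was called for A1005 against A1129 (-0.29, adjusted p = 0.0484) and for A1005 against A1471 (-0.45, adjusted p = 0.00565). These contrasts called 57.8% (A1005 against A1129), 57.7% (A1005 against A1471) and 45.9% (A1129 against A1471) of all tested genes.

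**Figure D4:**
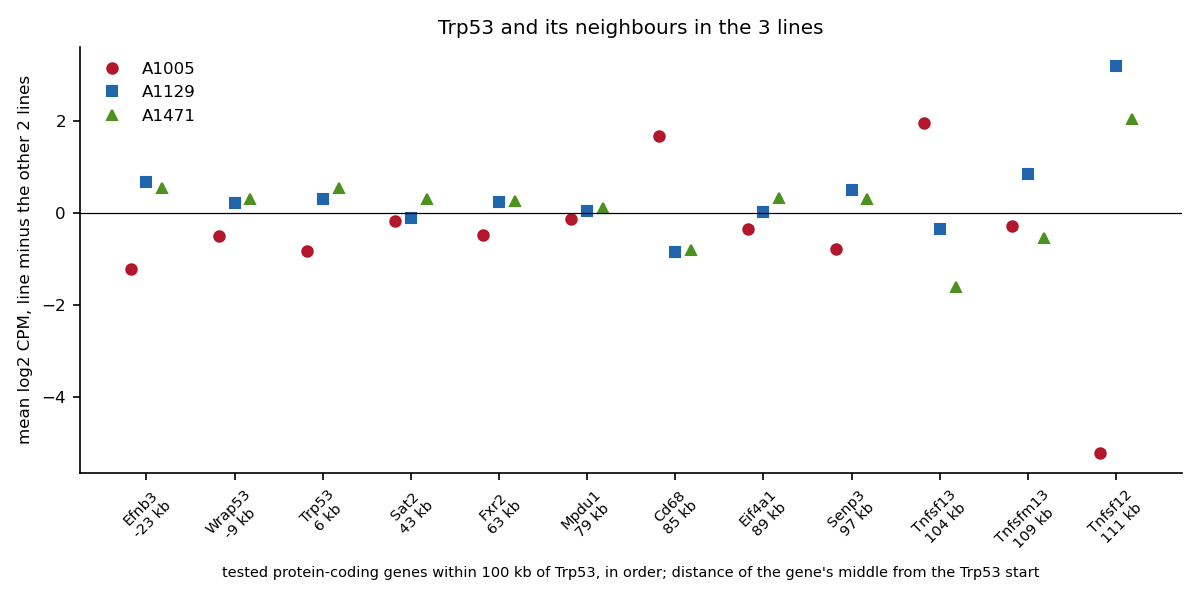
Mean log2 CPM over the 4 libraries of a line less that over the 8 libraries of the other 2 lines, for Trp53 and its 11 tested neighbours in genomic order, with the distance of the middle of each gene from the Trp53 start in kilobases. Points of A1005 lie below 0 for Trp53 and 9 of the 11 neighbours and above 0 for Cd68 and Tnfsf13, and the lowest point is Tnfsf12 in A1005, at -5.22. Mpdu1, Sat2 and Tnfsfm13 are among these 9 and were not called in any contrast of lines.

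Under the combination, Wrap53 fell together with the lower values of Trp53. Wrap53 stood at 18.5 ± 4.57 CPM in DMSO and 10.3 ± 1.20 CPM in the combination (SD, n = 3), with a log2 change of -0.85 (adjusted p = 0.0639) and of -0.82 with the block (adjusted p = 4.9e-04). Whether the count kept the strands of the reads is not stated, although no exon of Trp53 overlaps one of Wrap53 in the annotation.

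The genes whose levels followed a member most closely over the 12 libraries were named as a description. For Trp53 they were Bcl6b (Pearson r = 0.94), Pgls (0.94) and Gtf2f1 (0.92), and for Mdm2 they were Ccdc14, Slc9a2 and Dnajc8 (0.93 each). For Sesn2 the closest were Mrc1 (0.82), Gm6712 (0.82) and Aqr (0.80). The 12 points share lines and treatments, so a shared order of the lines can by itself give such values.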

How the data were processed

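Gene counts were deposited for 12 libraries. Per the labels, the authors used bcl2fastq, STAR and HTSeq with mm10, and versions, annotation release, strand setting and treatment of multi-mapping reads are not given in the sources used here. The deposited values are raw counts, and no 2 of the 66 library pairs were identical. Genes were tested with edgeR 4.0.16 (quasi-likelihood, TMM, filterByExpr with a minimum count of 10 and total of 15, Benjamini-Hochberg adjusted p under 0.05), unpaired over treatments as in the methods of the study, with lines as replicates. The same lines recur in each treatment, and deviations from the treatment means correlated at 0.871 on average within a line (lowest 0.766). A fit with the cell line as a block is therefore given beside it. Between lines the value was -0.422, which the centring on the mean of 3 lines largely fixes, so nothing is read from it. Lines were compared with treatment as a term. DESeq2 1.42.0, limma 3.58.1 (voom), other scalings, filters and left-out libraries were alternatives. Intervals are 95% intervals of the fit. RPKM used exon lengths of the GENCODE M21 basic set, and 55480 of 55573 identifiers matched. log2 CPM used a prior count of 2. The edgeR, DESeq2 and voom fits were tested on simulated counts. Members and gene lists were chosen with earlier results of these data known. Named genes were the members, Cdkn1a, Cdkn2a, the 2 highest and 2 lowest called changes of each list in the combination, neighbours within 100 kb and the 3 genes most correlated with Trp53, Mdm2 and Sesn2. Markers, Wrap53 under treatment and E2f1 were named after their values were seen.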

Additional observations from a re-analysis of the deposited data

Results flagged for a closer look

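Within a line, 5 of 33 sets of 4 libraries (9 tested members, Cdkn1a and Cdkn2a in 3 lines) held a library whose gap to the next, as a share of the whole range on the log2 CPM scale, passed Dixon's critical value at 95%. Chance marks about 1 in 20 such sets. In A1129 the combination library was high for Ccng1 (147 CPM against 73.9 to 83.1 in the others, ratio 0.83) and for Eda2r (13.7 CPM against 8.29 to 8.91, ratio 0.854). In A1471 the combination library was low for Zmat3 (36.9 CPM against 48.7 to 51.2, ratio 0.843). In A1005 the PD173074 library was high for Phlda3 (96.8 CPM against 76.7 to 79.0, ratio 0.87) and the DMSO library was low for Eda2r (3.20 CPM against 4.34 to 4.58, ratio 0.848). The 4 libraries of a line received different treatments, so a library that stands apart in 1 line cannot be told apart from a response of that line. Cdkn1a changed in opposite directions with the combination, by 0.71 on the log2 scale in A1129 (66.5 to 109 CPM) and by -1.15 in A1005 (115 to 51.9 CPM). This difference between lines was not tested, since each line had 1 library for each treatment.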

How the results depend on the processing

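The number of members called depended mainly on the pairing. With the cell line as a replicate block it went from 0 to 4 for the combination against DMSO, from 0 to 3 against Crizotinib and from 0 to 2 against PD173074, and the block changed no other member's call among treatments. Trp63 is 1 of the 3 against Crizotinib, and nothing is read from its calls, here or with a line left out. With the block and A1005, A1129 or A1471 left out in turn, alternatives added after seeing the data, 2, 2 and 1 members were called against DMSO, beside 50.3%, 40.8% and 36.8% of all tested genes. Against Crizotinib 2, 3 and 2 were called, beside 48.2%, 41.9% and 34.8%, and against PD173074 0 each, beside 34.9%, 17.1% and 21%, with fewer libraries in each fit. DESeq2 called 1 member against DMSO, beside 10.3% of its genes, and 1 against Crizotinib, beside 2860 of 28504 genes. Leaving out a replicate from the unpaired fit gave 0 members in each of the 6 comparisons. For lines, a further minimum of 1.5 on the size of the log2 change left 2 members for A1005 against A1129, 2 for A1005 against A1471 and 0 for A1129 against A1471, beside 16.1%, 15% and 9.58% of all tested genes. Trp63, which passed the filter only through A1005, is 1 of the 2 in both. Dropping the treatment term left 1 for A1129 against A1471, beside 23.0%. Leaving out the libraries of 1 treatment gave 4 to 5, 6 to 7 and 1 to 2 members for the 3 line contrasts, beside 47.3% to 64.8%, 45.8% to 64.5% and 33.1% to 54.1%. For A1129 against A1471, Phlda3 was joined by Sesn2 without the Crizotinib libraries and by Ccng1 without the combination libraries. Of the log2 changes of single members, 0 changed sign in a called fit under any alternative. Trp63 had at most 16 counts per library in A1129 and A1471, which limits what its changes within these lines can show. Over all genes, the unpaired combination against DMSO called 2021 genes without A1005, 324 without A1129 and 120 without A1471, against 1990 with all lines.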
